A study of Homo sapiens with 40 samples.

Results

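CD274, CD80, CD83, ICAM1 and SLAMF7 encode proteins through which a B cell meets T cells and natural killer cells. The values below are those of the 24 array probes whose single gene symbol was one of these 5, out of 15246 probes and 4604 genes measured. CD274 had 1 probe, CD80 had 3, CD83 had 12, ICAM1 had 4 and SLAMF7 had 4. The genes were grouped for the kind of protein they encode. The rule itself uses no measured value, but the genes were chosen with earlier results of these data known.

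RNA of the human lines OCI-Ly3 and OCI-Ly10, established from diffuse large B cell lymphoma of the activated B cell-like form, was measured on 40 spotted 2-colour arrays in 6 experiments with 26 time points. Each array compared treated cells with control cells of the same line, which were untreated cells for IL-10, IL-6 and JAK inhibitor I. The OCI-Ly3 iIkBsr line was given doxycycline at 20 ng/ml to induce an IkB super-repressor, an inhibitor of NF-kB, for 1, 1.5, 2, 3, 4 or 6 h (9 arrays), and the OCI-Ly10 iIkBsr line for 1.5, 3, 6 or 24 h (4 arrays). The control cells of these experiments carried the same inducible construct, and whether a line was 1 clone is not given in the sources used here. OCI-Ly3 received IL-10 at 50 ng/ml for 1, 3, 6, 24, 48 or 96 h (10 arrays), and OCI-Ly10 received IL-6 at 50 ng/ml for 0.5, 1, 3, 6 or 24 h (8 arrays). OCI-Ly10 was electroporated with a STAT3 siRNA pool at 4 uM, against electroporation with no siRNA, and harvested after 8, 24 or 48 h (5 arrays). It also received JAK inhibitor I at 5 uM for 3 or 6 h (4 arrays). No array measured doxycycline in cells without the construct or a non-targeting siRNA, so effects of these agents as such cannot be told apart from those of the intended target. For JAK inhibitor I, whose control cells were untreated, effects of a solvent cannot be told apart either.

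The protein encoded by CD274, PD-L1, binds PD-1 on T cells and restrains them. CD80 is a B7 protein that binds CD28 to stimulate T cells and CTLA4 to restrain them. CD83 marks mature dendritic cells and activated B cells, ICAM1 is an adhesion protein that binds the integrin LFA-1, and SLAMF7 is a receptor of the SLAM family that binds its own kind on plasma cells, B cells and natural killer cells. NF-kB is known to activate ICAM1, CD80 and CD83 in activated B cells, and interferon and STAT signals are known to activate CD274. IL-10 and IL-6 are cytokines that signal through JAK kinases to STAT3.

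All values are log2 ratios of treated over control RNA. The base of the deposited logarithm is not given in the sources used here and was read as 2. A mean over the time window of an experiment was tested against 0 with limma, and a gene was called where its p-value, adjusted by Benjamini and Hochberg's method over all genes tested, was under 0.05. In bulk RNA, fewer cells expressing a gene and less RNA per cell cannot be told apart. The arrays held 8862 to 14947 values each. The genes that the treatments target or act on through were measured first. STAT3 was at -1.59 ± 0.17 (SE, adjusted p = 6.40e-05, limma) under its siRNA. NFKBIA, the NF-kB target that encodes IkB alpha, was at -1.61 ± 0.10 in OCI-Ly3 and -1.03 ± 0.15 in OCI-Ly10 under the super-repressor. NFKBIA probes could also detect the introduced construct. SOCS3, a feedback target of STAT3, was at 0.77 ± 0.10 under IL-6 and 0.28 ± 0.09 under IL-10, both called (adjusted p = 2.60e-04 and 0.0147, limma). It was not called under the siRNA (0.19 ± 0.13, adjusted p = 0.438) or the inhibitor (0.22 ± 0.13, adjusted p = 0.441). STAT3 was at -0.69 ± 0.17 under the inhibitor (adjusted p = 0.0264, limma). Ratios give no expression levels, so the labelled B cell origin could not be checked against marker levels. Of the 7 measured B cell markers, 3 were called under IL-10 (CD79A at -0.34, CD22 at 0.20 and CR2 at 0.25), 2 under the super-repressor in OCI-Ly3 (PAX5 at -0.22 and BLNK at 0.26) and 1 under the inhibitor (CD79B at 0.68). Of all genes 35.3%, 14% and 3.26% were called in these 3 experiments, and the markers' part in the results was not tested.

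**Figure D1:**
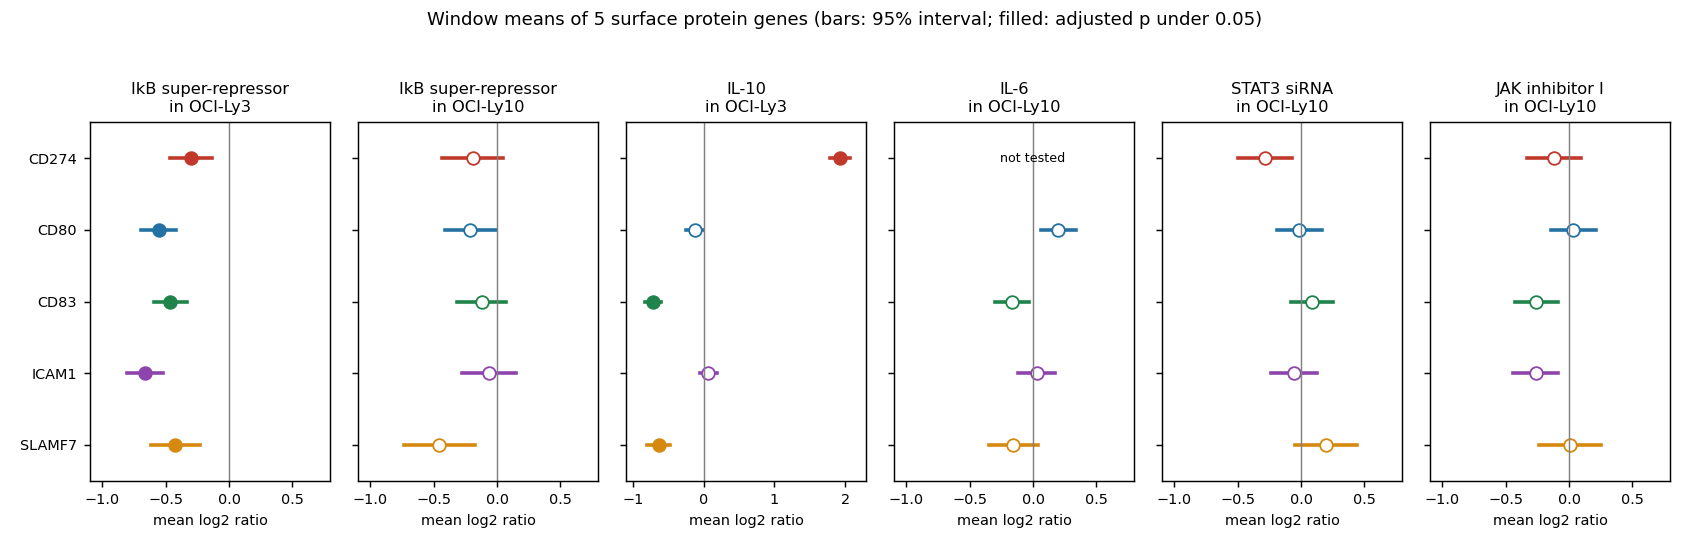
Mean log2 ratio of treated over control over the time window of each experiment (horizontal axis, 1 panel per experiment, with a wider axis for IL-10) for the 5 genes, with 95% intervals and filled points where the adjusted p was under 0.05. All 5 genes lie left of 0 under the super-repressor in OCI-Ly3, and CD274 at 1.92 under IL-10 lies furthest from 0.

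Under the super-repressor in OCI-Ly3, all 5 genes were called lower in the main fit. With array run as a random block, CD80, CD83 and ICAM1 were called, CD274 (adjusted p = 0.142) and SLAMF7 (adjusted p = 0.0688) were not, and 103 of all genes were called, against 616 without it (limma). Over 2 to 6 h ICAM1 fell by 0.66, CD80 by 0.56, CD83 by 0.46, SLAMF7 by 0.42 and CD274 by 0.30 on the log2 scale. The 35 values of these genes on the 7 arrays of the window were all below 0. Among all genes tested, 4.87% were called lower and 14% were called in either direction, and 8% were below 0 on every measured array. The median of the 5 genes was -0.46, against -0.03 for all 4390 genes tested. Because the 5 genes were chosen with earlier results of these data known, these comparisons with all genes are a description and not a test.

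ICAM1 had the largest shift of the 5. It stood at 0.11 (1 h), -0.06 (1.5 h), -0.60 and -0.30 (2 h), -0.75 (3 h), -0.73 and -0.45 (4 h), and -0.81 and -0.91 (6 h). The decline thus appeared from 2 h, and both 6 h arrays were lower than every other array of the course. The -0.45 at 4 h (replicate 2) averaged 1 probe at 1.02 with the others at -1.18, -0.97 and -0.66. The window mean was -0.66 ± 0.07 (SE, 95% interval -0.81 to -0.52, adjusted p = 5.87e-06, limma), a 1.58-fold lower ratio and the 9th largest shift by size among 4390 genes. CD80 stood at 0.08 (1 h), 0.02 (1.5 h), -0.28 and -0.06 (2 h), -0.59 (3 h), -0.52 and -0.64 (4 h), and -0.87 and -0.90 (6 h). Its arrays at 3 h and later were all below its arrays at 2 h and earlier, and the window mean was -0.56 ± 0.07 (adjusted p = 3.44e-05, limma).

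CD83, which is measured by the largest number of probes, stood at 0.04 (1 h), -0.02 (1.5 h), -0.36 and -0.15 (2 h), -0.49 (3 h), -0.58 and -0.47 (4 h), and -0.54 and -0.61 (6 h). From 3 h on its 5 arrays kept within a narrow range. The window mean was -0.46 ± 0.06 (adjusted p = 1.31e-04, limma). SLAMF7 was uneven between arrays, at 0.03 (1 h), -0.10 (1.5 h), -0.88 and -0.19 (2 h), -0.25 (3 h), -0.20 and -0.31 (4 h), and -0.50 and -0.80 (6 h), with a window mean of -0.42 ± 0.09 (adjusted p = 0.00666, limma). CD274, the checkpoint ligand, shifted least. It was at 0.21 (1 h), -0.03 (1.5 h), -0.32 and -0.37 (2 h), -0.24 (3 h), -0.34 and -0.23 (4 h), and -0.20 and -0.47 (6 h) (window mean -0.30 ± 0.08, adjusted p = 0.0199, limma). The 7 arrays from 2 h on ran from -0.47 to -0.20, in no order by time.

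At single times, none of the 5 genes was called at 1, 1.5, 2 or 3 h by limma, where 0.0223%, 0%, 0.046% and 0.0224% of all genes were called lower (4 of the 5 had an unadjusted p under 0.05 at 2 h, 3 at 3 h and 0 at 1 and 1.5 h). At 4 h CD80, CD83 and ICAM1 were called lower, among 0.481% of all genes called lower, and at 6 h SLAMF7 joined them, among 1%. The difference of 4 to 6 h minus 1 to 2 h was called lower for CD80 (-0.71 ± 0.12, adjusted p = 0.00548) and ICAM1 (-0.59 ± 0.13, adjusted p = 0.0302), where 0.43% of genes were called lower by limma. For CD83 it was -0.47 ± 0.12 (adjusted p = 0.0866), and it was called lower with array run as a random block (adjusted p = 0.0108), the replicate number as a block (0.0232) or arrays scaled to equal spread (0.0496). It was for SLAMF7 -0.25 ± 0.17 and for CD274 -0.25 ± 0.14. Within the 2 runs of neighbouring array numbers the difference was -0.60 and -0.75 for CD80 and -0.52 and -0.50 for ICAM1. Neither of the 2 called differences was called in a fit of this experiment alone (adjusted p = 0.0904 for CD80 and 0.274 for ICAM1). That of ICAM1 was also lost without the 1 h array (adjusted p = 0.257), the 1.5 h array (0.121), replicate 1 at 4 h (0.222), replicate 1 or 2 at 6 h (0.0800 and 0.139) or replicate 2 at 2 h (0.0722).

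The 2 replicate arrays at 2 h correlated at 0.008 across probes, against 0.679 at 4 h and 0.568 at 6 h. Without both 2 h arrays, an alternative chosen after seeing the data, the call of CD274 was lost (adjusted p = 0.0702). It was also lost without any 1 of 3 arrays, replicate 1 at 4 h (adjusted p = 0.0536), replicate 2 at 2 h (adjusted p = 0.0635) or replicate 2 at 6 h (adjusted p = 0.0627).

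**Figure D2:**
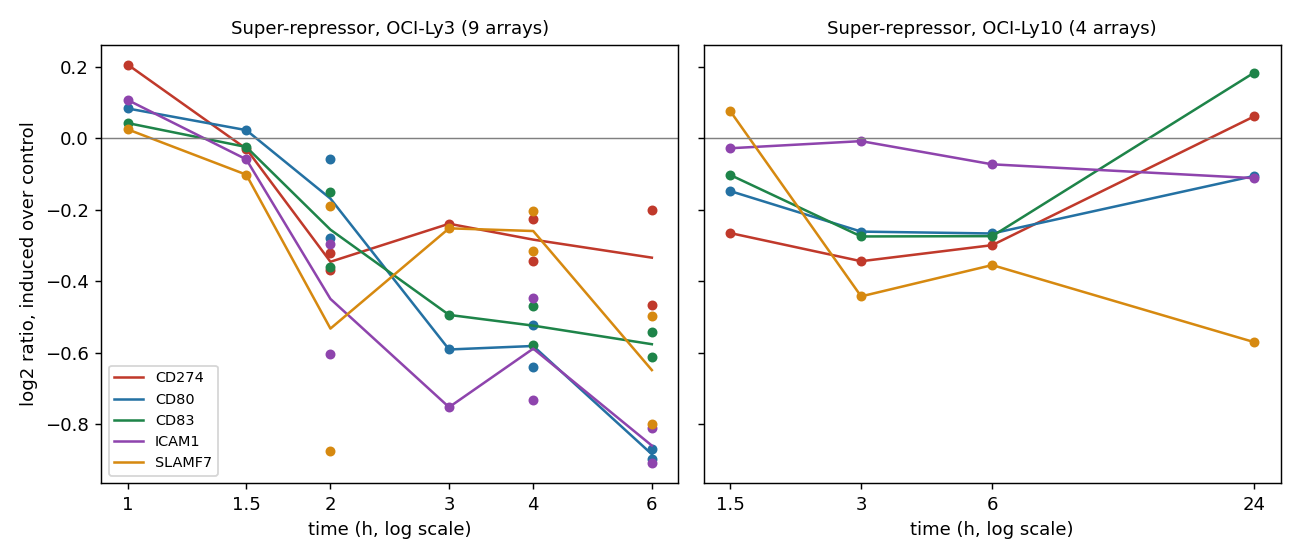
Log2 ratio of doxycycline-induced over control cells against time (hours, log axis) in OCI-Ly3 (left) and OCI-Ly10 (right), with a point per array and lines through the means. In OCI-Ly3 the 6 h points of ICAM1 and CD80 lie between -0.91 and -0.81, and in OCI-Ly10 ICAM1 stays between -0.11 and -0.01.

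The 250 bases before the RefSeq start of ICAM1, at chr19:10270870-10271119 on the plus strand of GRCh38.p14, are shown because this gene had the largest shift of the 5 under the super-repressor in OCI-Ly3 and its start region is a known place of NF-kB action. A sequence of letters that NF-kB proteins prefer, GGANNTTCC, occurs 186 to 178 bases before the start, and one that STAT proteins prefer, TTCNNNGAA, occurs 75 to 67 bases before it, both in capitals and both read on either strand.
ICAM1: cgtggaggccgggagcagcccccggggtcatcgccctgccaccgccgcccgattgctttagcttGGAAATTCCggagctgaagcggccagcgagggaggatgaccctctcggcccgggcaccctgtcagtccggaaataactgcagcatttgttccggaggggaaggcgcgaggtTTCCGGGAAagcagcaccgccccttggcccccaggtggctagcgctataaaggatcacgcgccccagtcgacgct
Over the same 250 bases of 35116 RefSeq promoters, searched on both strands, GGANNTTCC occurred in 3.84% and TTCNNNGAA in 6.57%. The corresponding window of CD80, at chr3:119559615-119559864 on the minus strand, held none of these letters on either strand. CD83 has 2 listed starts. The window before the first held none of them, and GGANNTTCC occurred 50 to 42 bases before the second. A match is a string of letters only, and binding was not measured.

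In OCI-Ly10 none of the 5 genes was called under the super-repressor over 3 to 24 h by limma, where 0.532% of all genes were called (2 of the 5, CD80 and SLAMF7, had an unadjusted p under 0.05). SLAMF7 was at 0.08 (1.5 h), -0.44 (3 h), -0.35 (6 h) and -0.57 (24 h), 1 array each, with a window mean of -0.46 ± 0.13 (95% interval -0.74 to -0.17, adjusted p = 0.238, limma). Its 3 later arrays were all below the first. CD80 was at -0.15, -0.26, -0.27 and -0.11 at the same 4 times, and CD83 at -0.10, -0.27, -0.27 and 0.18. CD274, like CD83, was below 0 at the first 3 times, at -0.27, -0.34, -0.30 and 0.06. ICAM1 stood at -0.03, -0.01, -0.07 and -0.11, closer to 0 than any other of the 5 over the window (mean -0.06, 95% interval -0.27 to 0.15). With arrays scaled to equal spread, CD80 (adjusted p = 0.0480) and SLAMF7 (adjusted p = 0.00817) passed the threshold as lower.

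The lines were compared at the shared times of 1.5, 3 and 6 h. ICAM1 averaged -0.56 in OCI-Ly3 and -0.04 in OCI-Ly10, a difference of -0.52 ± 0.14 (95% interval -0.81 to -0.24). Its unadjusted p was 0.00110, but adjusted over 4384 genes it was 0.994, and 0 genes (0%) were called different by limma, with 108 at an unadjusted p under 0.05. CD80 differed by -0.26 (95% interval -0.53 to 0.02), CD83 by -0.15 (-0.41 to 0.11), SLAMF7 by -0.09 (-0.48 to 0.29) and CD274 by 0.10 (-0.23 to 0.43). A difference between the lines was therefore not detected for any of the 5 genes over the whole table.

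IL-10 in OCI-Ly3 raised CD274 strongly and lowered CD83 and SLAMF7. Over 1 to 96 h CD274 rose by 1.92 on the log2 scale, 3.79-fold, which was the 3rd largest shift by size of 4383 genes. CD83 fell by 0.71 and SLAMF7 by 0.63. CD80 was at -0.12 and ICAM1 at 0.07 over the window. The 3 calls among 5 stand beside 16.1% of all genes called higher, 19.2% called lower and 35.3% called in either direction.

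CD274 was at 1.10 and 0.87 (1 h), 0.96 and 1.15 (3 h), 1.42 and 1.16 (6 h), 1.95 and 2.52 (24 h), 2.69 (48 h) and 3.29 (96 h). Every array was above 0, the 1 h arrays included, and the 4 arrays at 24 h and later were above the 6 at 1 to 6 h. The window mean was 1.92 ± 0.07 (SE, 95% interval 1.78 to 2.06, adjusted p = 2.70e-12, limma). CD274 was called higher at each of the 6 times, with an adjusted p of 0.00110 at 1 h (0.98 ± 0.16, SD, 2 arrays) and 1.11e-08 at 96 h (1 array, limma). Of all genes, 0.623% were called higher (1 h), 2.26% (3 h), 3.08% (6 h), 5.46% (24 h), 4.45% (48 h) and 8.41% (96 h). The mean of 24 to 96 h exceeded that of 1 to 6 h by 1.63 ± 0.13 (adjusted p = 4.31e-07, limma), where 7.96% of genes were called higher and 5.52% lower (591 genes in all, and 901 with the replicate number as a block). The 48 and 96 h arrays formed a run of their own. Within the other 2 runs, 24 h minus the mean of 1 to 6 h was 1.46 and 0.79.

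The 250 bases before the start of CD274, at chr9:5450292-5450541 on the plus strand of GRCh38.p14 (RefSeq), are shown because this gene had the largest response of the 5. The capitals mark 2 overlapping matches to GAAANNGAA, letters preferred by interferon regulatory factors, on the minus strand 207 to 193 bases before the start. They also mark TTCNNNGAA 125 to 117 bases before it, and GGANNTTCC on the minus strand 111 to 103 bases before it.
CD274: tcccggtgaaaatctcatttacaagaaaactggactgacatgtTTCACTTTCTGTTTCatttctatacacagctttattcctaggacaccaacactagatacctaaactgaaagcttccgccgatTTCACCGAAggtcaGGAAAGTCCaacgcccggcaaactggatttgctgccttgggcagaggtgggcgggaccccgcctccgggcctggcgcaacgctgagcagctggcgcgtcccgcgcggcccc
GAAANNGAA occurred in 6.88% of the 35116 promoter windows. ICAM1, CD80 and CD83 had no match to it in their windows.

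CD83 moved the other way from CD274. It was at 0.06 and -0.10 (1 h), -0.35 and -0.58 (3 h), -0.68 and -1.05 (6 h), -0.77 and -1.17 (24 h), -1.01 (48 h) and -0.94 (96 h). The 8 arrays from 3 h on were all below both 1 h arrays. The window mean was -0.71 ± 0.05 (adjusted p = 4.84e-09, limma), and CD83 was called lower at 3, 6, 24, 48 and 96 h but not at 1 h. Of all genes, 0.3% were called lower (1 h), 1.43% (3 h), 3.71% (6 h), 4.34% (24 h), 1.67% (48 h) and 6.3% (96 h). SLAMF7 was at -0.15 and -0.18 (1 h), 0.23 and -0.37 (3 h), -0.89 and -0.70 (6 h), -0.49 and -0.70 (24 h), -0.80 (48 h) and -1.36 (96 h). It was called lower at 6, 24, 48 and 96 h, and its window mean was -0.63 ± 0.08 (adjusted p = 4.03e-06, limma).

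CD80 changed sides over the course. It was at -0.13 and -0.11 (1 h), 0.59 and 0.23 (3 h), 0.46 and -0.11 (6 h), -0.05 and -0.28 (24 h), -0.37 (48 h) and -0.68 (96 h). It was called at 96 h alone (lower, 1 array, adjusted p = 0.00924, limma, 6.3% of genes called lower). Its window mean was -0.12 ± 0.06 (adjusted p = 0.0910, limma). With the replicate number as a block, which here also separates array runs, the mean was -0.17 and called lower (adjusted p = 0.0179). ICAM1 was at 0.68 and 0.29 (1 h), 0.35 and -0.17 (3 h), -0.06 and -0.32 (6 h), -0.10 and -0.22 (24 h), -0.03 (48 h) and 0.20 (96 h). It was not called at any time, and the 1 h mean of 0.48 ± 0.27 (SD, 2 arrays) came closest (adjusted p = 0.0744, limma).

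The mean of 24 to 96 h minus that of 1 to 6 h was -0.56 ± 0.11 for CD80 (adjusted p = 0.00195), -0.53 ± 0.11 for CD83 (adjusted p = 0.00205) and -0.57 ± 0.16 for SLAMF7 (adjusted p = 0.0179), all called lower by limma. For ICAM1 it was -0.13 ± 0.12 (adjusted p = 0.573). Within the 2 runs that hold both early and 24 h arrays, 24 h minus 1 to 6 h was -0.28 and -0.36 for CD80, -0.60 and -0.45 for CD83 and -0.28 and -0.22 for SLAMF7. In a fit of the IL-10 arrays alone these 3 calls were lost (adjusted p = 0.0896, 0.0852 and 0.0759 in the same order), and that of SLAMF7 also without the 96 h array (-0.35, adjusted p = 0.289) or without replicate 1 at 3 h (adjusted p = 0.0547).

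**Figure D3:**
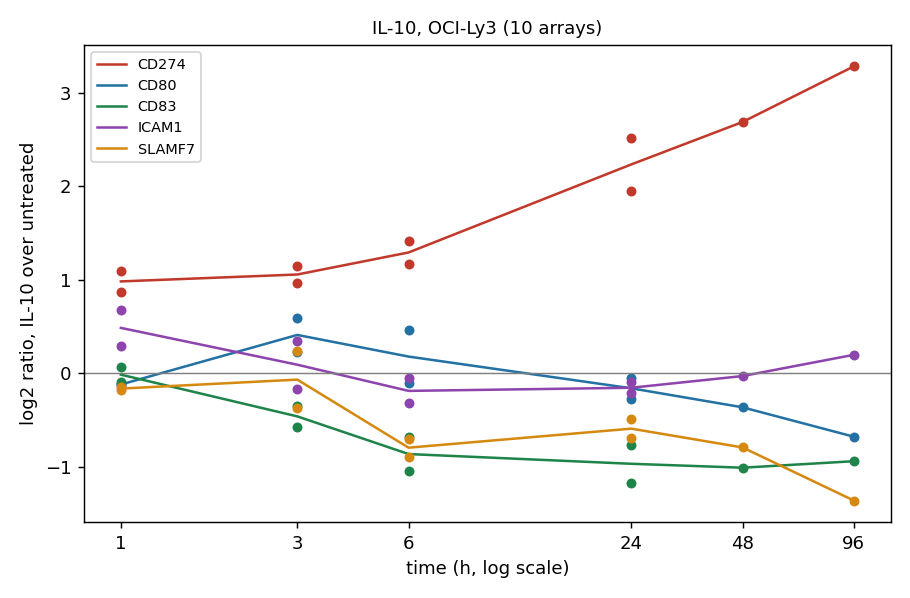
Log2 ratio of IL-10-treated over untreated OCI-Ly3 cells against time (hours, log axis) with a point per array and lines through the means. CD274 climbs to 3.29 (96 h), while CD83 and SLAMF7 reach -0.94 and -1.36.

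The probes of a gene did not respond alike. Under the super-repressor in OCI-Ly3, 3 of 4 ICAM1 probes were called lower, at -1.0, -0.92 and -0.62, while the fourth was at -0.12 ± 0.11 (adjusted p = 0.473, limma with each probe fitted on its own). Of 11 CD83 probes tested there, 8 were called lower, and all 11 lay between -0.72 and -0.08. Under IL-10, 10 of 12 CD83 probes were called lower, from -1.03 to -0.54, and the other 2 were at -0.13 and -0.09. These 2 probes were also among the 3 of CD83 not called under the super-repressor, at -0.28 and -0.08. Across arrays, pairs of CD83 probes correlated between -0.06 and 0.98 (median 0.50 over 66 pairs, which share the arrays). All 4 SLAMF7 probes were called lower under IL-10, from -0.92 to -0.46. CD80 had 3 of 3 probes called lower under the super-repressor, and 1 of 2 tested under IL-10. The CD83 and ICAM1 means over probes include these less responsive probes, and CD274 rests on 1 probe. The ICAM1 probe at -0.12 holds the single value of 1.02 at 4 h (replicate 2) under the super-repressor in OCI-Ly3.

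**Figure D4:**
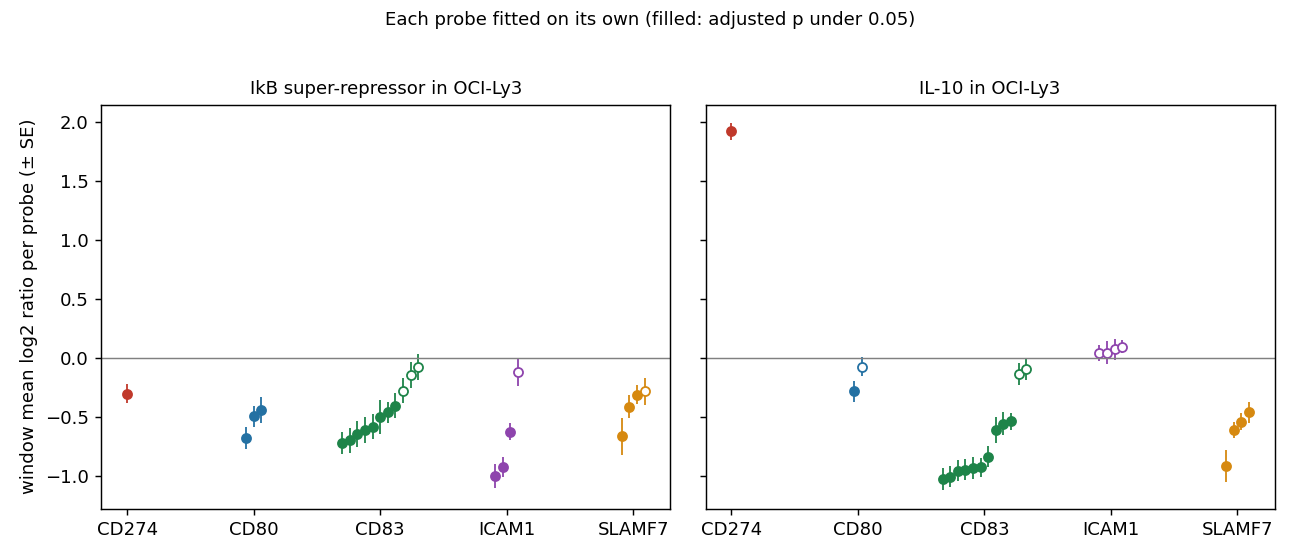
Window mean log2 ratio of each probe (vertical axis, ± SE) by gene under the super-repressor (left) and IL-10 (right) in OCI-Ly3, filled where the adjusted p was under 0.05. Under IL-10, 2 CD83 probes at -0.13 and -0.09 stand apart from 10 between -1.03 and -0.54.

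With IL-6 in OCI-Ly10 none of the 4 genes tested was called over 1 to 24 h by limma, where 4.54% of all genes were called, 150 genes, or 308 with the replicate number as a block (CD80 and CD83 had an unadjusted p under 0.05). CD80, the B7 ligand, was above 0 on 7 of 7 arrays, with 0.01 and 0.02 (1 h), 0.28 and 0.42 (3 h), 0.15 and 0.05 (6 h) and 0.34 (24 h). Its window mean was 0.20 ± 0.07 (95% interval 0.06 to 0.34, adjusted p = 0.0878, limma). These CD80 values averaged 1 to 3 probes per array, with 1 at 24 h. Single probes fell as low as -0.22 (6 h, replicate 1). Only 1 of 3 CD80 probes had enough values to be tested singly (mean 0.23). CD83 was below 0 on 7 of 7, with -0.12 and -0.01 (1 h), -0.04 and -0.14 (3 h), -0.43 and -0.43 (6 h) and -0.09 (24 h), and a mean of -0.17 ± 0.06 (adjusted p = 0.135). The 2 arrays at 6 h were the lowest of CD83, but its probes with a value differed between arrays. There were 5 at 6 h (replicate 1) and 11 at 24 h. Those 5 ran from -0.55 to -0.19 at 6 h (replicate 1) and from -0.56 to -0.32 at 24 h. The other probes with a 24 h value ran from -0.44 to 0.78 there. Fitted singly, 8 of 12 CD83 probes were tested, with means of -0.37 to -0.05. SLAMF7 was also below 0 on 7 of 7 arrays, from -0.30 to -0.06 (mean -0.16, adjusted p = 0.325). Its values averaged 1 to 4 probes per array, and at 24 h the SLAMF7 probes ran from -0.575 to 0.573. ICAM1 ran from -0.13 to 0.26 (mean 0.03, 95% interval -0.12 to 0.17). CD274 had a value on 3 of 7 arrays, at 0.05, -0.24 and 0.03, and was not tested. With arrays scaled to equal spread, CD80 and CD83 passed the threshold (adjusted p = 0.0230 and 0.0209).

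The 2 cytokines were compared at 1, 3, 6 and 24 h, in different lines, so cytokine and line cannot be told apart. CD83 averaged -0.58 under IL-10 in OCI-Ly3 and -0.17 under IL-6 in OCI-Ly10, and the difference of -0.41 ± 0.08 was called (adjusted p = 0.00409, limma), the only call among the 4 genes tested, where 5.6% of genes were called lower and 9.5% in either direction. SLAMF7 differed by -0.25 (95% interval -0.51 to 0.01), CD80 by -0.12 (-0.31 to 0.06) and ICAM1 by 0.03 (-0.16 to 0.22). CD274 could not be compared in this way because too few IL-6 arrays had a value.

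With STAT3 lowered by siRNA in OCI-Ly10, none of the 5 genes was called over 24 and 48 h by limma, where 3.31% of all genes were called (1 of the 5, CD274, had an unadjusted p under 0.05). CD274 was at -0.29 (8 h), -0.29 and -0.58 (24 h), and 0.00 and -0.28 (48 h). Its window mean was -0.29 ± 0.10 (95% interval -0.50 to -0.07, adjusted p = 0.126, limma), and 3 of 4 arrays of the window were below 0. CD83 lay on opposite sides of 0 at the 2 times. It was at -0.19 on both 24 h arrays, and at 0.28 and 0.44 (48 h). SLAMF7 was at 0.06 and -0.19 (24 h), and at 0.21 and 0.71 (48 h). Neither was called at 48 h (adjusted p = 0.0924 for CD83 and 0.132 for SLAMF7, limma), where 0.633% of genes were called higher. CD80 kept between -0.14 and 0.09 and ICAM1 between -0.21 and 0.08 over the 4 arrays.

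Under JAK inhibitor I in OCI-Ly10, none of the 5 was called over 3 and 6 h by limma, where 3.26% of all genes were called (CD83 and ICAM1 had an unadjusted p under 0.05). ICAM1 was below 0 on 4 of 4 arrays, at -0.20 and -0.30 (3 h) and -0.20 and -0.35 (6 h), with a mean of -0.27 ± 0.09 (95% interval -0.45 to -0.08, adjusted p = 0.106, limma). CD83 was at -0.33 and -0.40 (3 h) and 0.01 and -0.31 (6 h) (mean -0.26 ± 0.08, adjusted p = 0.0870). CD83 was thus below 0 on 3 of 4 arrays. Fitted probe by probe, 3 of 12 CD83 probes (-0.64 to -0.52) and 1 of 4 ICAM1 probes (-0.41) were called lower. In the fit that blocks on replicate number, which here also separates the 2 array runs, both genes were called lower (adjusted p = 0.0253 for CD83 and 0.0298 for ICAM1), and with arrays scaled to equal spread CD83 was (adjusted p = 0.0120). CD274 ran from -0.39 to 0.10, CD80 from -0.05 to 0.12 and SLAMF7 from -0.20 to 0.33. Against the super-repressor in the same line, at 3 and 6 h, the inhibitor differed for none of the 5 genes by limma (0 with an unadjusted p under 0.05, and 0.316% of all genes called). The differences were 0.40 for SLAMF7 (95% interval -0.02 to 0.83), 0.30 for CD80 (-0.01 to 0.60), 0.20 for CD274 (-0.16 to 0.57), 0.02 for CD83 (-0.27 to 0.31) and -0.23 for ICAM1 (-0.54 to 0.09).

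**Figure D5:**
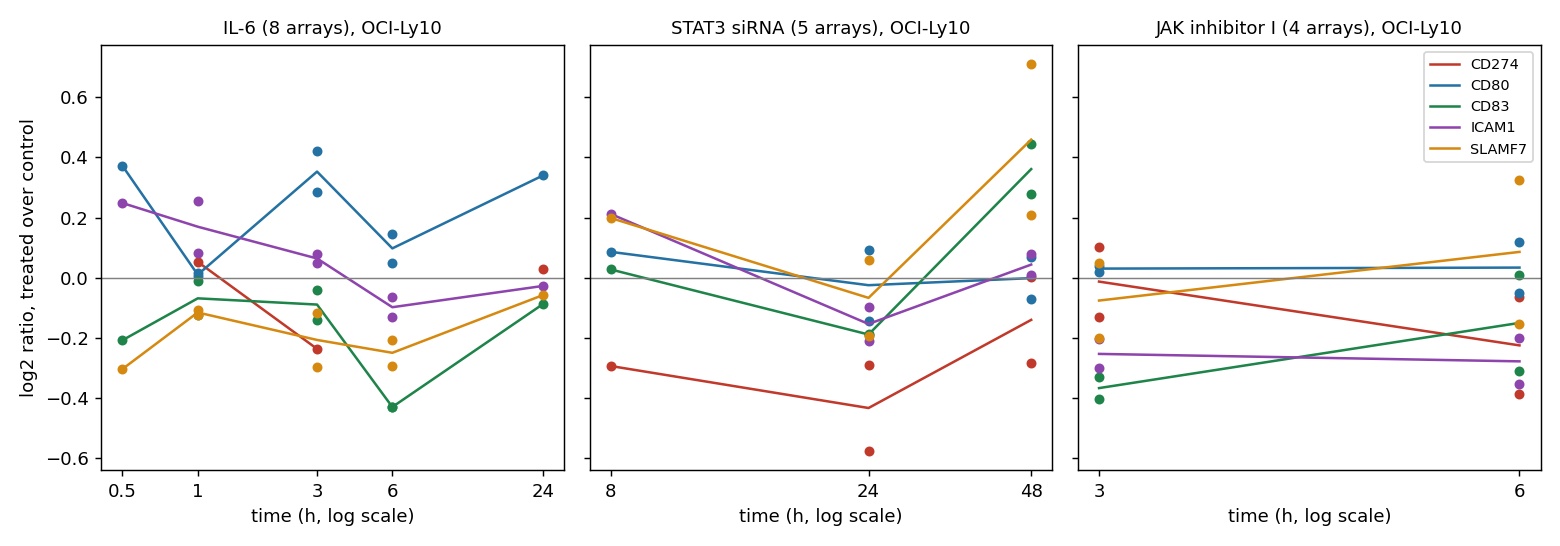
Log2 ratio of treated over control OCI-Ly10 cells against time (hours, log axis) under IL-6, STAT3 siRNA and JAK inhibitor I, with a point per array and lines through the means, broken where a time has no value. Points lie between -0.58 (CD274, siRNA, 24 h) and 0.71 (SLAMF7, siRNA, 48 h), and no window mean was called.

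Other genes of these families were followed from 4 lists. Of 15 measured genes of B7 and TNF family co-stimulation, IL-10 in OCI-Ly3 raised 2 and lowered 3. These 5 of 15 are a share close to the 35.3% of all genes called. ICOSLG, a B7 ligand that stimulates T cells through ICOS, fell by 1.03 ± 0.06 (adjusted p = 3.68e-10, limma), CD40, the receptor for T cell help, fell by 0.27 and TNFRSF18 fell by 0.23. CD70, the ligand of CD27, rose by 0.57 ± 0.08 and CD47, a signal against phagocytosis, rose by 0.12. CD86, the relative of CD80, was at 0.10 (adjusted p = 0.354), and PDCD1LG2, which encodes the other PD-1 ligand and lies beside CD274, was at 0.06 ± 0.12 (adjusted p = 0.761). The list's median was 0.01, against -0.02 for all genes. Under the super-repressor in OCI-Ly3, 1 of 15 rose (CD47, 0.16) and 0 fell, where 14% of all genes were called, with a median of -0.09. Under IL-6, 1 of 8 rose, CD200 (0.35 ± 0.07, adjusted p = 0.00870), where 4.54% of all genes were called, and in the other 3 experiments none of the 16 measured was called by limma (1, 4 and 1 had an unadjusted p under 0.05 under the super-repressor in OCI-Ly10, the siRNA and the inhibitor).

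Of the SLAM family and its CD2 partners, 1 of 10 measured fell under the super-repressor in OCI-Ly3, beside 4.87% of all genes called lower. It was SLAMF6, a receptor close to SLAMF7, at -0.57 ± 0.16 (adjusted p = 0.0400, limma, below 0 on 6 of 6 arrays), and the list's median was -0.16. Under IL-10, 1 of 9 rose, CD48 (0.37 ± 0.07), beside 16.1% of all genes called higher and 35.3% called in either direction. SLAMF6 was at 0.25 there (adjusted p = 0.174, limma) and SLAMF7 had fallen. No gene of this list was called by limma in the other 4 experiments, where 0.532% to 4.54% of all genes were called (3 of 9 had an unadjusted p under 0.05 under the siRNA, 1 of 5 under IL-6, and 0 of 10 in each of the others).

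Of 20 measured adhesion genes other than ICAM1, IL-10 raised 3 and lowered 2, 5 of 20 beside the 35.3% of all genes called. ALCAM, an adhesion protein that binds CD6, fell by 1.31 ± 0.23 (adjusted p = 0.000200, limma) and the integrin chain ITGB1 fell by 0.39. The integrin chains ITGB7 and ITGAX rose by 0.43 and 0.28, and EZR, which links membrane proteins to actin, rose by 0.24. Under the super-repressor in OCI-Ly3, 0 rose and 2 of 20 fell, CD6 (-0.30) and ITGAX (-0.20), beside 4.87% of all genes called lower. IL-6 raised 1 of 15, PECAM1 (0.57 ± 0.10, adjusted p = 0.00314), beside 4.54% of all genes called. The siRNA raised 1 of 19, EZR (0.39), and lowered 1, ITGAL (-0.38), the LFA-1 chain that binds ICAM1, beside 3.31% called. Under the super-repressor and the inhibitor in OCI-Ly10, 0 of 20 were called by limma, with 1 of 20 at an unadjusted p under 0.05 in each. Of 3 measured genes from the region of chromosome 9 around CD274, 1 was tested under IL-6 (KDM4C), 2 under the super-repressor in OCI-Ly3 (JAK2 and KDM4C) and 3 in each of the other experiments. The only call among these tests was JAK2 under IL-10 (-0.22 ± 0.07, adjusted p = 0.0325), where CD274 rose. Some markers of other cell types were also called under IL-10, where 35.3% of all genes were called. Of 4 myeloid markers 1 was higher (CD14, 0.60) and 1 lower (FCGR3A, -0.28). Of 9 T and natural killer cell markers 2 were higher (CD4, 0.26, and CD3E, 0.17) and 1 lower (KLRD1, -0.18). Of 3 stromal markers 1 was lower (VIM, -0.23). Under the super-repressor in OCI-Ly3 the stromal marker THY1 was lower (-0.25), beside 4.87% of all genes called lower. Their part in the results was not tested.

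Over the 26 time-point means, CD80 and ICAM1 followed each other at r = 0.56, and at 0.83 over the 20 means without IL-10. CD83 and SLAMF7 followed each other at 0.76 (0.56 without IL-10), while CD274 ran against CD83 at -0.71 over 24 means (0.47 over the 18 without IL-10). These points share lines and array runs, and IL-10 holds the largest ratios, so each value is a description. Among all genes with enough values, those most like CD274 were CXCL9, a chemokine (0.97), PRDM1, a regulator of plasma cell differentiation (0.96), and PTPN1, a phosphatase (0.93). Without IL-10 these correlations were 0.26, 0.04 and 0.26. Those most like ICAM1 were NFKBIA (0.77), TRAF1, a signalling adaptor of the TNF receptor family (0.76), and IER5 (0.74), with 0.81, 0.85 and 0.79 without IL-10. CD80 was most like TRAF1 (0.77, and 0.88 without IL-10), TSPAN7 (0.76) and CASP10 (0.75). CD83 was most like the cytokine gene TNF (0.90, and 0.78 without IL-10), LHFPL6 (0.84) and CCND1 (0.84). SLAMF7 was most like CD1C, which encodes a lipid antigen-presenting protein (0.87), the chemokine gene CCL22 (0.86) and LHFPL6 (0.85), with 0.77, 0.76 and 0.82 without IL-10.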

How the data were processed

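RNA of 40 samples was hybridised to 2-colour spotted arrays, with treated cells in Cy5 and control cells in Cy3, per the labels. The authors deposited log ratios whose base is not stated (read as log2), with array medians of -0.031 to 0.011 and 12.6% of cells blank. How background was corrected and arrays normalized is not given in the sources used here. The lowest correlation between 2 arrays was -0.415, between different treatments; the direction rests on the labelled dyes, and STAT3 was lower under its siRNA.

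After median-centring, the 10169 probes with exactly 1 symbol were averaged by gene, leaving out 5073 with no symbol listed and 4 with several. All 40 arrays entered 1 fit in limma 3.58.1 (R 4.3.3) with a mean for every experiment and time. Window means were tested against 0, with Benjamini-Hochberg adjustment over all genes and a threshold of 0.05. The window was 2 to 6 h in OCI-Ly3 and 3 to 24 h in OCI-Ly10 under the super-repressor, 1 to 96 h with IL-10, 1 to 24 h with IL-6, 24 and 48 h with siRNA and 3 and 6 h with inhibitor. Testing needed a value at each time and on 75% of a window's arrays. A time with 1 array takes its spread from the others. Ratios tested against 0 leave out the spread of control RNA, dyes were not swapped, and no label says that replicates came from separate cultures, so the p-values may reflect technical spread. The fit was tested on simulated data with noise drawn independently for each array. Its error rates under variation shared within array runs were therefore not tested.

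The genes, windows and lists were chosen with earlier results of these data known. Named genes were the 5 genes, up to 3 called higher and 3 called lower from each list and experiment, the 3 most correlated with each of the 5, and STAT3, NFKBIA and SOCS3. CD86, PDCD1LG2 and SLAMF6 under IL-10, and the called markers, were named after their values were seen. Differences between replicates 2 and 1 correlated between times at 0.393 to 0.590 for IL-10 and 0.185 to 0.229 for IL-6, so same-numbered arrays varied together. Where a time had 2 arrays, the number also separated the array runs, so pairing and run cannot be told apart. These correlations ran from -0.368 to 0.336 for the super-repressor in OCI-Ly3. Runs are 12 stretches of array numbers in the titles with gaps under 50, and the labels do not describe them. Alternatives covered scaling, missing values, probe averaging, arrays fitted, run and replicate blocks, and leaving out each array. Sequences are RefSeq's (GRCh38.p14), matched by symbol for 4 of the 5 genes.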

Additional observations from a re-analysis of the deposited data

Results flagged for a closer look

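Changes between early and late times within 1 experiment passed a test of the difference itself (limma, adjusted over all genes) for 6 results, and no group had the 4 arrays needed to look for a single outlying array. Under IL-10 in OCI-Ly3, the mean of 24 to 96 h minus that of 1 to 6 h was 1.63 for CD274, which was at 2.74 late and 1.11 early. It was -0.56 for CD80, whose means of -0.40 late and 0.15 early lay on opposite sides of 0, though CD80 was called at none of the early times. It was -0.53 for CD83 (-0.98 late and -0.45 early) and -0.57 for SLAMF7 (-0.92 late and -0.34 early). Under the super-repressor in OCI-Ly3, the mean of 4 to 6 h minus that of 1 to 2 h was -0.71 for CD80 (-0.73 late and -0.02 early) and -0.59 for ICAM1 (-0.72 late and -0.13 early). In fits of each experiment's arrays alone, only the CD274 difference of these 6 was called. The 48 and 96 h arrays of IL-10 lie in a run of their own, and the part of that run in the late means was not tested beyond the 24 h values given within runs.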

How the results depend on the processing

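Across 922 recomputed values of the 5 genes, 889 stayed on the same side of the threshold, 20 lost a call, 13 gained one and 0 reversed a call. Direction was compared only where a value was called, and some uncalled values near 0 changed sign. Values without centring, with medians over probes, and with both other rules for missing values changed no call.

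With arrays scaled to equal spread, of the 5 genes those called were 2 under IL-6, 2 under the super-repressor in OCI-Ly10 and 1 for the inhibitor (CD83, adjusted p = 0.0120). Genes called were then 455 under IL-6, 238 under the super-repressor in OCI-Ly10, 83 for the siRNA and 232 for the inhibitor, and genes differing were 2 between lines, 64 between inhibitor and super-repressor, 295, 18 and 14 between times of IL-10, IL-6 and the super-repressor in OCI-Ly10. CD83 passed for 4 to 6 h minus 1 to 2 h of the super-repressor in OCI-Ly3 (adjusted p = 0.0496). The later-minus-earlier call of SLAMF7 under IL-10 was lost (-0.39, adjusted p = 0.177). Fitted probe by probe, at least 1 probe was called for 1 of the 5 genes under the super-repressor in OCI-Ly10, 1 under the siRNA, 2 under the inhibitor and 2 for IL-10 minus IL-6. Of all genes, those with at least 1 called probe were 971 and 49 under the super-repressor in OCI-Ly3 and OCI-Ly10, 381 under the siRNA and 348 under the inhibitor. Between times of the super-repressor they were 45 in OCI-Ly3 and 3 in OCI-Ly10.

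With only the arrays of the experiments compared, genes called were 368 under the super-repressor in OCI-Ly3, 71 for IL-6, 1031 for IL-10, 0 for the siRNA and 12 for the inhibitor, genes differing were 207 for IL-10 minus IL-6, 0 for inhibitor minus super-repressor, 227, 1 and 4 between times of IL-10, IL-6 and the super-repressor in OCI-Ly3, and of the 5 genes those differing between times were 1 for IL-10 and 0 for the super-repressor in OCI-Ly3. This fit was not run for the super-repressor in OCI-Ly10, where 1 array per time leaves no residual degrees of freedom.

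With array run as a random block (correlation 0.2687), 3 of the 5 genes were called under the super-repressor in OCI-Ly3. Genes called were 103 and 5 under the super-repressor in OCI-Ly3 and OCI-Ly10, 32 for IL-6, 48 for the siRNA and 77 for the inhibitor, and genes differing were 103 for IL-10 minus IL-6, 9 for inhibitor minus super-repressor, and 13, 47 and 1 between times of IL-6 and of the super-repressor in OCI-Ly3 and OCI-Ly10. CD83 passed for 4 to 6 h minus 1 to 2 h of the super-repressor in OCI-Ly3 (adjusted p = 0.0108).

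With the replicate number as a block (replicate block), genes called were 1189 and 39 under the super-repressor in OCI-Ly3 and OCI-Ly10, 308 for IL-6, 417 for the siRNA and 259 for the inhibitor, and genes differing were 901 between times of IL-10 and 2 of the super-repressor in OCI-Ly10. The super-repressor in OCI-Ly10 has no second replicate, so its counts could move only through the spread estimated over all arrays. Under the inhibitor 2 of the 5 genes were called, CD83 (adjusted p = 0.0253) and ICAM1 (adjusted p = 0.0298). CD83 also passed for 4 to 6 h minus 1 to 2 h of the super-repressor (adjusted p = 0.0232). In the siRNA and inhibitor experiments, the differences between replicates correlated at 0.254 and 0.217 over 2 times each. In every experiment with replicates, the number also separates the array runs at times with 2 arrays. Number and run cannot be told apart there. The block changed no call of the 5 genes under IL-6.

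Leaving out 1 array at a time, calls among the 5 genes ran from 4 to 5 under the super-repressor in OCI-Ly3, from 3 to 4 under IL-10 and between times of IL-10, and from 1 to 2 between times of the super-repressor in OCI-Ly3, and its ICAM1 difference from -0.66 to -0.47 (adjusted p 0.0202 to 0.257, lost in 6 of 8). Genes called ran from 269 to 957 and 1 to 17 for the super-repressor in OCI-Ly3 and OCI-Ly10, 93 to 147 for IL-6, 21 to 106 for the siRNA and 44 to 160 for the inhibitor. Genes differing ran from 306 to 600, 3 to 10, 15 to 28 and 0 to 1 between times, in the order IL-10, IL-6, super-repressor in OCI-Ly3 and in OCI-Ly10, and from 1 to 18 for inhibitor minus super-repressor. Without both 2 h arrays, CD274 was at -0.29. CD80 under IL-10 was called lower without replicate 1 at 3 h (adjusted p = 0.0447) or at 6 h (adjusted p = 0.0132). The causes of these changes were not tested. Signal over background was not used here, and 1 to 2 arrays per time limit the precision of single times.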

Other observations

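Some times lie outside the tested windows. With IL-6, the single 0.5 h array gave 0.37 for CD80, 0.25 for ICAM1, -0.21 for CD83 and -0.30 for SLAMF7. With the siRNA, the single 8 h array gave -0.29 for CD274, 0.21 for ICAM1, 0.20 for SLAMF7, 0.09 for CD80 and 0.03 for CD83.

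CD79B, which encodes a chain of the B cell receptor complex, rose under JAK inhibitor I in OCI-Ly10 (0.68 ± 0.13, adjusted p = 0.00398, limma, above 0 on 4 of 4 arrays). It was the only B cell marker of 7 called there.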
